A study of Mus musculus with 6 samples.

Results

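MiR-296 and miR-298 (mmu-miR-296 and mmu-miR-298 on the array) are mouse microRNAs (miRNAs) whose hairpin genes lie side by side near Gnas on distal chromosome 2. On the array used here each is read by 1 probe with 4 spots, so the pair makes up 2 of 275 miRNA names, 2 of 294 probes and 8 of 1176 spots for mouse miRNAs. The probes were found by the miRNA name in the scanner tables. The pair was chosen by its spot values, saturation flags and ratios in this contrast, so these are given as a description and no test is reported for either miRNA.

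The arrays compared 6 G1E-ER4 cultures, each grown and harvested on its own: 3 were left untreated (0 h) and 3 received estradiol at 1e-07 M for 24 h. G1E-ER4 is a mouse erythroid line without its own GATA-1, the transcription factor that drives red cell maturation, and it carries a form of GATA-1 that works only when estradiol is bound. Both groups were grown in the same medium with serum, Epo and stem cell factor, and all samples come from this 1 line. Each sample was labelled with Hy3 and hybridized against a common reference in Hy5, an equal mixture of all 6 samples, with no dye swap described. The untreated cultures are labelled 0 h, so the effects of GATA-1, of estradiol itself and of time in culture cannot be told apart.

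A miRNA is cut from a hairpin precursor, which can yield a mature strand from its 5′ side (5p arm) and another from its 3′ side (3p arm). The mature strand pairs with target mRNAs mainly through its seed, bases 2 to 8, and lowers their translation or stability. The Gnas region is imprinted, which means that some of its transcripts are made from only the maternal or only the paternal copy. It encodes the stimulatory G protein alpha subunit, and an antisense RNA (Gnasas1, also called Nespas) is made from the paternal copy. MiR-296 has been described to act on the pluripotency factor Nanog in mouse embryonic stem cells and on the growth factor receptor sorting protein HGS in human endothelial cells. MiR-298 has been described to act on Bace1, the beta-secretase, in mouse cells.

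In the RefSeq annotation of build GRCm38.p6, Mir296 spans chr2:174267047-174267125 and Mir298 chr2:174267504-174267585, both on the minus strand and 378 bases apart. No other annotated gene overlapped the span of both hairpins (0 genes). The nearest listed genes were Gnasas1, 13.7 kb away at chr2:174281237-174295436, and Gnas, 16.7 kb away at chr2:174284320-174346744, both toward higher coordinates. The hairpins are shown because both arms of each could bind a probe, with the 2 mature arms in capitals (RefSeq, GRCm38.p6, 5′ to 3′).
Mir296: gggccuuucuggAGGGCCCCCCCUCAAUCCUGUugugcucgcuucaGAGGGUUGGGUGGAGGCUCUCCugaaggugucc
Mir298: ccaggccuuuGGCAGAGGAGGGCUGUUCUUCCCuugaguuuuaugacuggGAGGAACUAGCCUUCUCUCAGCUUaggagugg

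The array's names carry no arm. In earlier miRNA nomenclature the plain names miR-296 and miR-298 belonged to the strands now called 5p, but the files do not state which strand a probe binds. The mature strands of both arms are shown with the seed in capitals, since the pair shares a locus and might be taken for a family.
miR-296-5p: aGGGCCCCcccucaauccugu
miR-296-3p: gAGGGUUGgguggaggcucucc
miR-298-5p: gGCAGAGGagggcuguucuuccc
miR-298-3p: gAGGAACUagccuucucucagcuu
No seed was shared between these 4 strands, and none was found in another of the 1679 mature mouse names of the RefSeq table (0 others for each), so by seed the pair is a gene neighbourhood and not a family. The 5p strands are rich in G and C. MiR-296-5p had a GC content of 66.7%, with a run of 7 C, and miR-298-5p had 65.2%, above 89.0% and 87.6% of the mature names, respectively. The 3p strands differed from each other, with 68.2% for miR-296-3p and 50.0% for miR-298-3p.

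MiR-298 gave the brightest signal of all 294 miRNA probes on every array, in the sample channel and in the reference. In untreated replicates 1 to 3 its foreground intensity in Hy3 (mean of 4 spots, on a scale whose ceiling is 65535) read 54590, 61165 and 64321, and estradiol replicates 1 to 3 read 54723, 56288 and 55630. Samples of both groups thus read between 54590 and 64321, in the upper part of the scale. The next brightest miRNA probe of each array lay between 20202 (miR-320, untreated replicate 1) and 47476 (miR-292-5p, estradiol replicate 2). These are signals of different probes and do not compare amounts of RNA.

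This brightness reached the limit of the scanner. All 24 Hy3 spots of miR-298 were flagged as saturated, on untreated and estradiol arrays alike, and so were 16 of its 24 Hy5 spots. The flag was set exactly where the median pixel of a spot stood at the ceiling, with 0 exceptions among 13440 spots per channel. Of the other miRNA probes, miR-302 and miR-484 each had 1 saturated spot, on estradiol replicate 3, and both of those spots also failed a shape criterion. MiR-298 was therefore the only miRNA probe whose spots were saturated on more than 1 array. In the reference, its saturated spots numbered 0, 4 and 4 beside the untreated samples, against 2, 2 and 4 beside those given estradiol. Reference intensities ran from 44011 through 59798 to 64349 beside untreated replicates 1 to 3, while estradiol replicates 1 to 3 had 52961, 52955 and 58081. The reference is the same mixture on each array by design, yet untreated replicate 1 gave the lowest and untreated replicate 3 the highest of these 6 values.

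**Figure D1:**
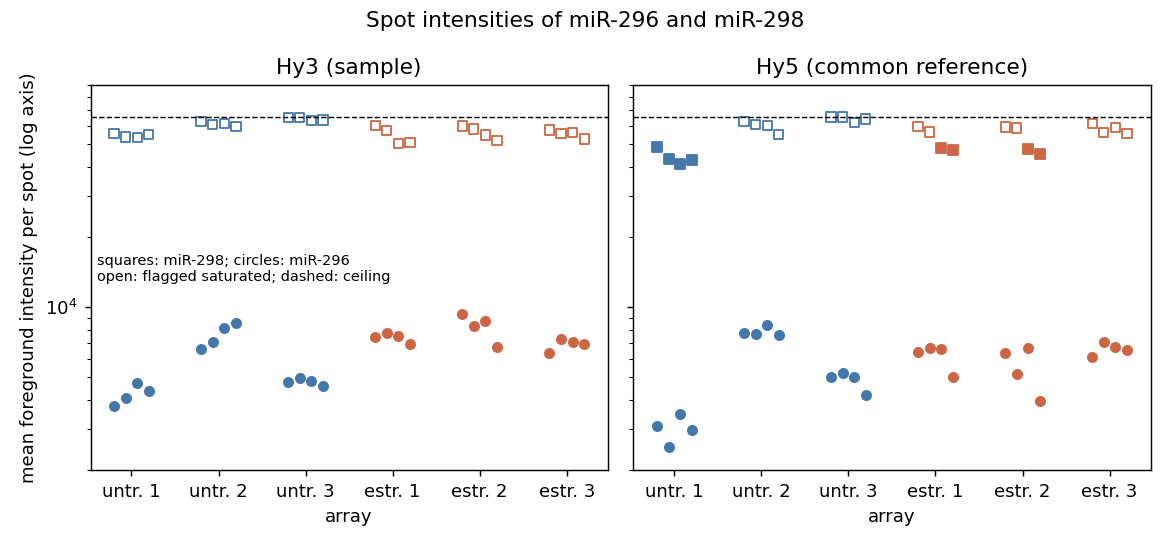
Mean foreground intensity of each spot of miR-296 (circles) and miR-298 (squares) in Hy3 (sample, left) and Hy5 (common reference, right) on a log axis, for the 3 untreated (blue) and 3 estradiol (orange) arrays; open symbols are spots flagged as saturated and the dashed line is the ceiling of 65535. All 24 Hy3 spots of miR-298 are open, while no spot of miR-296 is, and the reference spots of both miRNAs move from array to array.

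MiR-296 was among the brighter probes and never saturated (0 of 24 spots in either channel). Untreated replicates 1 to 3 had Hy3 intensities of 4243, 7618 and 4794, and estradiol replicates 1 to 3 had 7436, 8292 and 6934. Untreated replicate 2 thus lay among the estradiol arrays, and the groups overlapped on this unnormalized scale. The reference moved in a similar way, with Hy5 intensities of 3017, 7853 and 4868 beside the untreated and 6197, 5546 and 6629 beside the estradiol samples. After subtraction of the local background, the mean log2 intensity of miR-296 was 0.68 higher on the estradiol arrays in Hy3 and 0.50 higher in Hy5, although the Hy5 RNA is the same throughout. Its rank among the 294 probes was 26 to 38 in Hy3 and 28 to 34 in Hy5.

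Signal over background was lower for miR-296 on the untreated arrays in both channels. There its Hy3 intensity was 4.21, 4.89 and 3.38 times the local background, against 6.87, 8.18 and 6.38 times with estradiol. In the common reference, its Hy5 intensity was 5.04, 7.71 and 3.89 times background beside the untreated samples and 10.6, 9.51 and 11.1 times beside those given estradiol. The number of its 4 spots that exceeded background by 2 background SD was 2, 4 and 1 in untreated replicates 1 to 3, against 4 in each estradiol replicate, while all 24 Hy5 spots did so. Both miRNAs passed a filter that asks for this in a share of 0.5 of the spots on all 3 arrays of a group, but miR-296 passed it only through the estradiol group. The spot finder called no spot of either miRNA empty.

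Expressed as log2 of the sample to reference ratio after loess normalization, untreated replicates 1 to 3 gave -0.06, -0.10 and -0.11 for miR-296, whereas estradiol replicates 1 to 3 gave 0.09, 0.34 and 0.04. Every estradiol array lay above every untreated array, by 0.10 at the closest, and estradiol replicate 2 lay well above the other two. The group means were -0.09 ± 0.03 (SD, n = 3) and 0.16 ± 0.16 (SD, n = 3), a difference of 0.25 on the log2 scale (SE 0.12) or 1.19-fold. In bulk RNA, fewer cells with a miRNA and less of it per cell cannot be told apart. Without estradiol replicate 2 the difference was 0.16. Groups without overlap and higher after estradiol were found for 42 of 294 miRNA probes, which is 14.3% (21.1% in either direction). Among the 40 probes called above empty in both channels on all 6 arrays, miR-296 and miR-298 included, these shares were 22.5% and 35%. This pattern is shared by many probes, and nothing is read from it for miR-296. The size of the difference ranked 117th of 294, against a median absolute difference of 0.17 over all probes and a median difference of -0.02.

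For miR-298 the log2 ratios of untreated replicates 1 to 3 were 0.03, 0.17 and 0.24, and those of estradiol replicates 1 to 3 were 0.09, 0.03 and 0.15. The groups overlapped. The means were 0.15 ± 0.11 (SD, n = 3) and 0.09 ± 0.06 (SD, n = 3), and the measured difference was -0.06 (SE 0.06). Since the sample signal was saturated in both groups, no fold is given: the ratio of intensities at the ceiling does not measure the ratio of the RNAs. The spread within the 4 spots of an array was small (median SD 0.04, against 0.15 for miR-296), and this too was measured at the ceiling. Before normalization, the log2 ratio of miR-298 was 0.31 on untreated replicate 1, where no reference spot was saturated, and between -0.07 and 0.08 on the other 5 arrays.

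**Figure D2:**
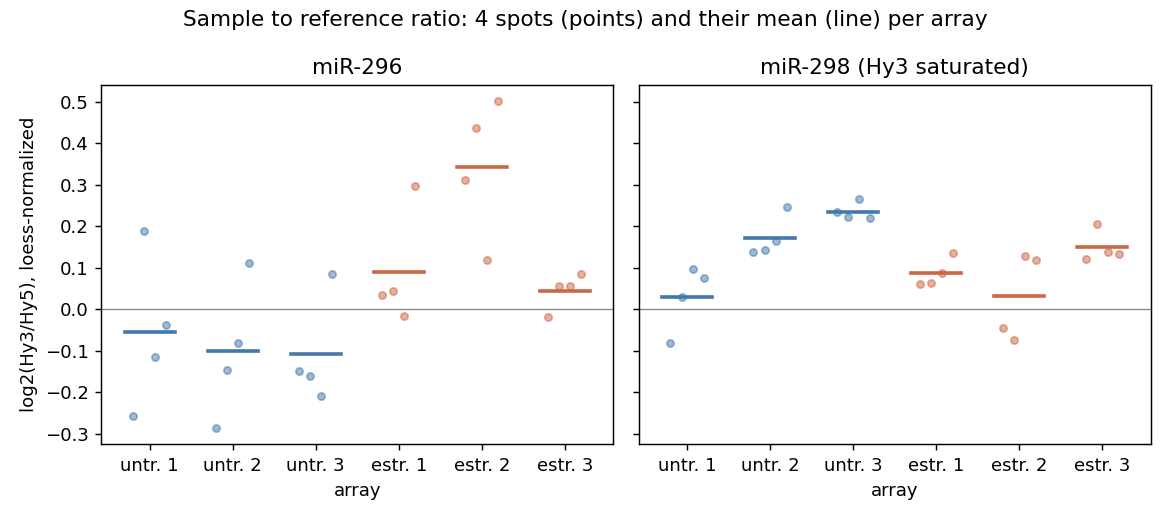
Loess-normalized log2(Hy3/Hy5) of miR-296 (left) and miR-298 (right) on each array, with the 4 spots as points and their mean as a line. For miR-296 all 3 estradiol means lie above the untreated ones, with estradiol replicate 2 at 0.34; for miR-298 the groups overlap between 0.03 and 0.24.

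As background for the probes described further on, 20 of all 294 probes (6.8%) passed a limma adjusted p of 0.05, and 9 of 51 (17.6%) did so after the filter on 2 background SD. Of the 20, 18 were higher after estradiol (6.12% of all probes, 90% of the calls), and this share of the calls was 53.3% with arrays centred on spiked-in controls. Nothing is read from these counts for the pair, which was chosen with values of this contrast in view.

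**Figure D3:**
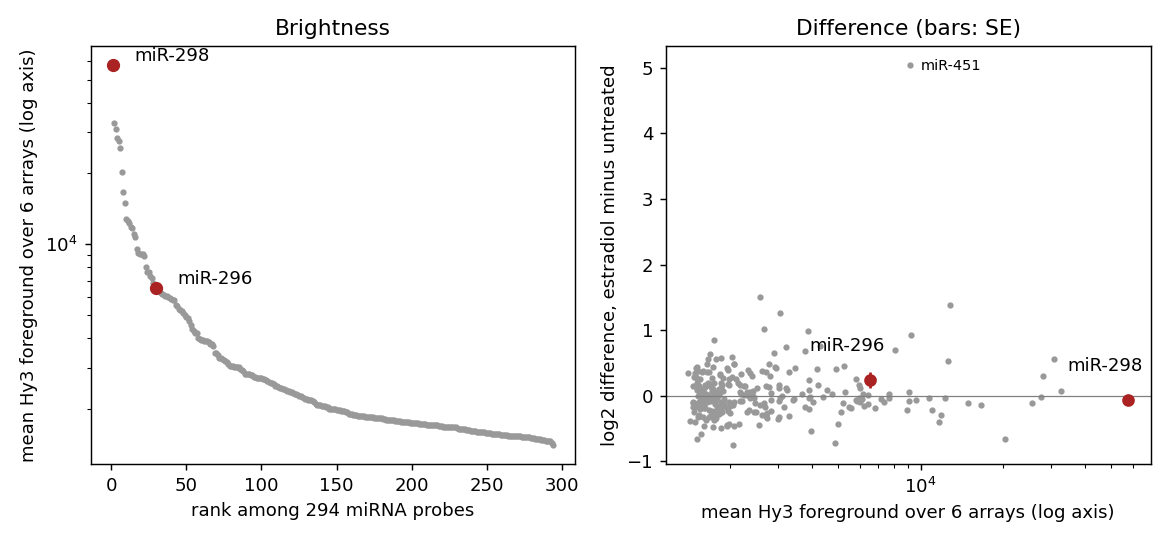
Left, mean Hy3 foreground of the 294 miRNA probes in order of brightness (log axis), with miR-298 at the top and miR-296 among the brighter probes. Right, log2 difference (estradiol minus untreated) against brightness for the same probes, with SE bars for the pair: miR-296 at 0.25 and miR-298, saturated in Hy3, at -0.06. The point marked miR-451 is at 5.04 and was called above empty on 3 of the 6 arrays.

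The spots of 1 probe sit in 4 blocks of the slide, at the same grid position in each. For miR-296, 3 of 12 untreated spots and 10 of 12 estradiol spots had a log2 ratio above 0. Its difference between groups was 0.34, 0.22, 0.19 and 0.24 in blocks 3, 7, 11 and 15, without overlap in blocks 3 and 11 and with overlap in the other two. The spot in block 15 had the highest ratio of the 4 on 5 of the 6 arrays, and the block means over all arrays ran from -0.06 to 0.17, a range close to the difference between the groups. For miR-298 the differences in blocks 4, 8, 12 and 16 lay between -0.07 and -0.05, and the groups overlapped in each.

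Every spot of miR-296 lies directly beside a spot of spike_control-01, a spiked-in control whose mean Hy3 intensity at these 4 places was between 52998 and 60264. Of the other spots beside this control in its row (28 spots, 168 spot and array pairs), 78.0% were called empty in Hy3, against 69.5% of all miRNA spots, their median Hy3 intensity was 1845, and the brightest probe among them, miR-320, had a mean of 32729. The part of this neighbour in the signal of miR-296 was not tested. The spots beside miR-298 in its row, which carry a probe of miR-376b, were called empty in 95.8% of cases, with a median of 1772. The spots of miR-298 themselves carried a mark for contaminated background in 8 of 24 cases, including all 4 on untreated replicate 3, and none failed a shape criterion (0 of 24).

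Brightness went with base composition to a limited degree. Over 259 probes (88.1%) that could be matched to RefSeq strands, the rank correlation between GC content and mean Hy3 intensity was 0.30 (Spearman). It was likewise 0.30 in Hy5. The probes share the arrays and are not independent. Only 27 probes matched by their exact name, and the others by a name with an arm added or by a synonym. The mean over the arms was used where a name gives no arm or ends in an asterisk, a matching chosen after values were seen. The 30 brightest matched probes had a median GC content of 55.7% and the others 45.5%. By the same measure miR-296 had 67.4%, exceeded by 7 probes, and miR-298 had 57.6%, exceeded by 31. For miR-298 this is the mean of unlike arms, 65.2% in 5p and 50.0% in 3p.

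Because miR-298 was measured at the ceiling, these arrays cannot show whether the 2 neighbours move together. Among 39 other probes with signal in both channels on all arrays, the ratios most like those of miR-296 were those of miR-106b (r = 0.91), miR-129-5p (r = 0.85) and let-7c (r = 0.81), whose own differences were 0.46, 0.53 and 0.17. Those most like the ratios of miR-298, which were measured at the ceiling, were miR-291b-5p (r = 0.89), miR-324-3p (r = 0.76) and miR-345 (r = 0.72), with differences of -0.05, -0.04 and -0.07. These correlations rest on 6 arrays and a shared normalization and are a description only.

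The probes of other miRNA genes on chromosome 2 lie far away. Toward the chromosome's end, the nearest on the array were miR-1 at 6.12 Mb, the joint probe of miR-133a and miR-133b at 6.13 Mb and miR-124a at 6.63 Mb, with log2 differences of -0.01, -0.17 and -0.06, none of which passed (limma adjusted p = 0.98, 0.68 and 0.87). On the other side, miR-499 lay 18.6 Mb away, and its 2 probes stood at 0.28 and 0.37 (limma adjusted p = 0.63 and 0.33). MiR-103, at 43.0 Mb, stood at 0.42 (adjusted p = 0.099), and miR-129 at 80.0 Mb, whose 5p probe rose by 0.53 (adjusted p = 0.0018) while its 3p probe stood at -0.72 (adjusted p = 0.16). By the share of their Hy3 spots called empty, miR-1 and both miR-499 probes were empty on all 6 arrays. The joint miR-133 probe was called above empty on 2 arrays, miR-124a on 3, miR-103 on 4 and both miR-129 probes on 6. Some of these miRNAs have further gene copies elsewhere, which a probe cannot tell apart.

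A list of other miRNAs taken to come from imprinted loci outside the Dlk1-Dio3 cluster had 7 probes on the array. The map positions of these miRNAs were not checked here. Of the 7 probes, 0 rose and 0 fell by limma, beside 6.8% passing over all probes. Of the 7, 4 lay above 0, and the median difference was 0.06. The 4 farthest from 0 were miR-297 (0.31), miR-466 (0.29), miR-468 (-0.22) and miR-469 (-0.19), with limma adjusted p of 0.53, 0.47, 0.72 and 0.68. MiR-335, from the imprinted Mest locus, stood at 0.06, and miR-483, from an intron of Igf2, stood at -0.11, and only miR-467a was called above empty on all 6 arrays (0.16, limma adjusted p = 0.67). MiR-134 and miR-470, described beside miR-296 to act on Nanog, Pou5f1 and Sox2 in mouse embryonic stem cells, had signal on all 6 arrays and stood at -0.09 and -0.18 (limma adjusted p = 0.74 and 0.53). Of 17 probes of angiogenesis miRNAs, 1 fell and 16 did not pass, beside 6.8% passing over all probes. The probe that fell was miR-222 (-0.75, SE 0.19, limma adjusted p = 0.030), which was called empty on all 6 arrays. The median difference of the 17 was -0.27, against -0.02 over all probes. These 17 are not independent, since the list holds the miR-17-92 cluster and its paralogs, with miR-18 and miR-20a each read by more than 1 probe. Only 2 of the 17 were called above empty on all 3 untreated arrays, and 2 on all 3 estradiol arrays. MiR-126, taken here as the endothelial marker, was called empty on every array with both of its probes, which stood at 0.36 and 0.15.

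Among the marker lists, 3 of 5 erythroid probes rose (miR-451, miR-144 and miR-16), beside 6.12% of all probes. MiR-486 (0.42) and miR-185 (-0.11) did not pass (limma adjusted p = 0.19 and 0.42). Of the 5, only miR-185 was called above empty on all 6 arrays, and miR-144 was so on 1. Erythroid probes called above empty on all 3 arrays of a group numbered 1 in untreated and 4 in estradiol cells. Of 5 myeloid and mast cell probes 3 rose: miR-21 (1.26), miR-142-3p (0.93) and miR-142-5p (0.68). MiR-21 was called above empty on 3 of the 6 arrays and both miR-142 probes on all 6. The myeloid miRNA miR-223 (0.39) and miR-155 (-0.25) did not pass and were called empty on all 6 arrays. None of the lymphoid (3), fibroblast (5), neural (4), liver (1), endothelial (2) and muscle (3) probes passed. Their part in the values of miR-296 and miR-298 was not tested.

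The value of miR-296 depended on how the arrays were scaled. The authors' deposited log2 ratios put untreated replicates 1 to 3 at -0.03, -0.07 and -0.11 and estradiol replicates 1 to 3 at 0.06, 0.39 and 0.09, again without overlap and with a difference of 0.25. With arrays centred on their median the groups overlapped (difference 0.19), as they did without normalization (0.22) and in Hy3 alone (0.21). Centred on the spiked-in controls, untreated replicates 1 to 3 read 0.42, 0.19 and 0.40, estradiol replicates 1 to 3 read 0.28, 0.60 and 0.30, and the difference shrank to 0.053, where the median of all probes was -0.12. With the loess curve drawn through bright probes alone (above background in each channel) the difference was 0.45, where the median of all probes was -0.79.

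For miR-298, the authors' deposited log2 ratios put untreated replicates 1 to 3 at 0.31, 0.18 and 0.23 and estradiol replicates 1 to 3 at 0.11, 0.08 and 0.08. There the groups did not overlap and the untreated arrays read higher, again with sample signal at the ceiling. With loess and normexp as used here they overlapped. In Hy3 alone, quantile normalization gives the brightest probe nearly the same value on each array (15.74 to 15.77 on the log2 scale), so that setting cannot show a difference for miR-298. Without its saturated spots it has no value at all.

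**Figure D4:**
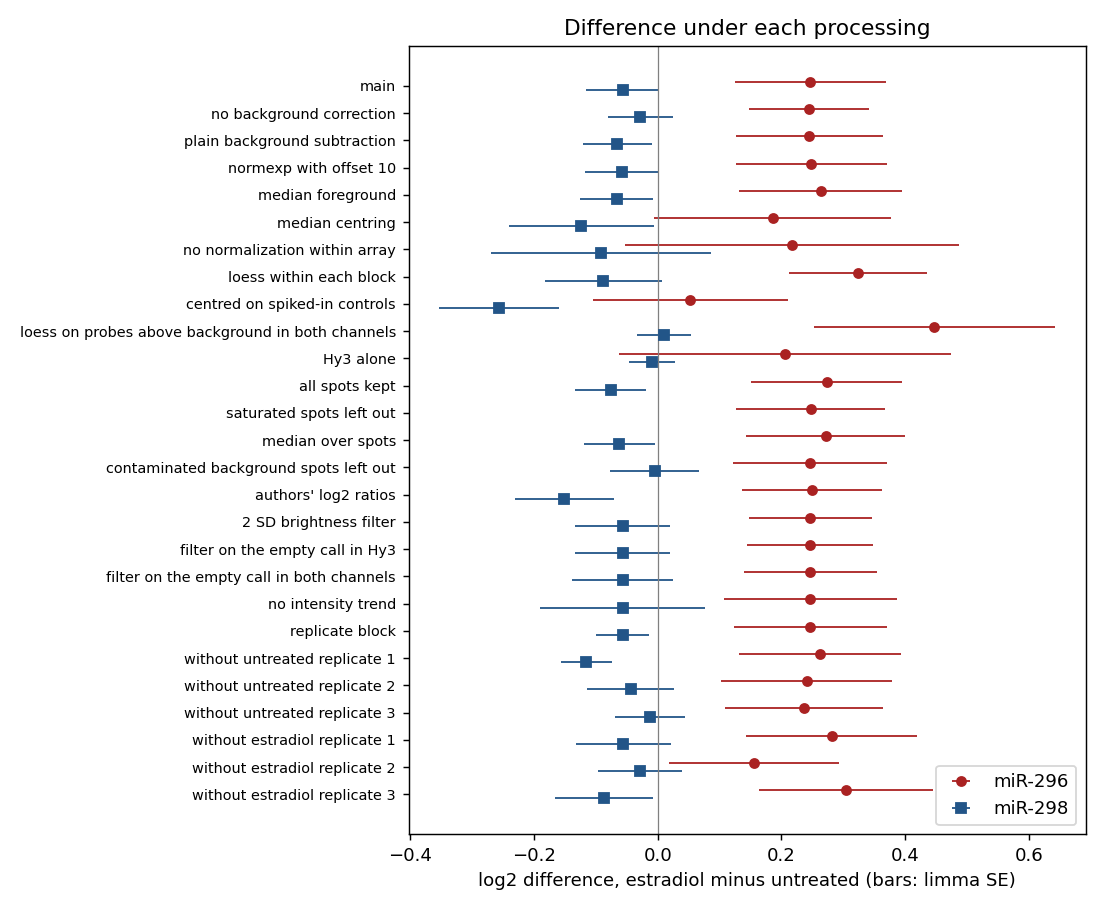
Log2 difference (estradiol minus untreated, bars are limma SE) of miR-296 (circles) and miR-298 (squares) with the main processing (top) and each alternative. MiR-296 ranges from 0.053 to 0.45 and miR-298 from -0.26 to 0.010; miR-298 has no point where saturated spots were left out.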

How the data were processed

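Per the file headers, the deposited scanner tables list every spot's foreground and background intensity in both channels, without subtraction, and its flags; the scanner is not given in the sources used here. The authors' normalized tables hold, per the file headers, a median ratio of Hy3 over Hy5 after lowess, and its log2. Here the mean foreground was corrected for the median background by normexp (offset 50) in limma 3.58.1 (R 4.3.3). Global loess within each array (control spots at weight 0) then normalized log2(Hy3/Hy5), and a probe's spots were averaged. Spots that failed a shape criterion were left out (87 to 192 per array). Saturated spots were kept, and so, by a choice made after the data were seen, were spots marked only for contaminated background. Groups came from the sample titles. All 294 miRNA probes entered lmFit and eBayes (trend over intensity), with Benjamini-Hochberg adjustment and a threshold of 0.05. The members, lists and alternatives were chosen with earlier results of these data known. Named were the pair and the 3 probes most like each member in log ratio over the 6 arrays. Also named were list members by largest absolute difference and the nearest miRNA genes of chromosome 2 on the array. MiR-335, miR-483, miR-467a, miR-126, miR-185, miR-223 and miR-155 were named after their values were seen. The number of arrays limits the precision; the median Hy3 foreground of miRNA spots was 1667 to 2261. The procedure was tested on simulated data. RefSeq sequences are of build GRCm38.p6, with both members matched by symbol. Plots used matplotlib 3.10.9 (Python 3.11.15).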

Additional observations from a re-analysis of the deposited data

How the results depend on the processing

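The difference of miR-296 ranged from 0.053 to 0.45 on the log2 scale over the alternatives, all above 0. The filters on dim probes, the fit without an intensity trend and the replicate block cannot change a difference of means in this design, so they say nothing about its stability. For miR-296, centring on spiked-in controls gave 0.053 and a loess through bright probes (above background in each channel) gave 0.45. The groups overlapped in 4 alternatives. MiR-298 ranged from -0.26 to 0.010: centring on spiked-in controls gave -0.26, the authors' log2 ratios -0.15 and the loess through bright probes 0.010, against the main direction; the cause was not tested. With each array left out in turn, miR-296 lay between 0.16 and 0.30 and miR-298 between -0.11 and -0.01. The groups of miR-298 did not overlap, with untreated arrays reading higher, in 4 alternatives: spiked-in controls, the authors' log2 ratios, Hy3 alone and without untreated replicate 1. Hy3 alone cannot show a difference for miR-298. All 4 rest on sample signal at the ceiling, so nothing is read from them about the amount of miR-298 in the cells. Leaving out spots marked for contaminated background, an alternative chosen after seeing the data, gave -0.01 for miR-298 and removed untreated replicate 3 for it. The count of 20 probes became 12 with median centring, 10 without normalization, 9 with the loess through bright probes, 4 in Hy3 alone and 8 without the intensity trend; 9 and 11 passed with the filters on 2 background SD and on the empty call in both channels, which left 51 and 40 probes. Leaving out 1 array gave 8 to 23, with 8 without estradiol replicate 1 and 12 without estradiol replicate 2. The share of higher calls, 90%, was 53.3% with spiked-in controls, 77.8% with the loess through bright probes or the 2 SD filter, 72.7% with the filter on both channels and 73.9% without untreated replicate 2. Same-numbered arrays deviated together with correlations of 0.13, 0.16 and 0.08, each array most like its own number, which is a hint from the data and not the design; not every pair exceeded 0.1, so the numbers were not taken to pair the arrays. With the replicate block, 20 probes passed, and the differences of miR-296 and miR-298 are 0.25 and -0.06 by construction. Saturation in Hy3 limits miR-298, and signal over background limits miR-296 on the untreated arrays.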
